A study of Homo sapiens with 4 samples.

Results

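The clustered protocadherins are 53 protein-coding genes that stand in 3 neighbouring clusters on human chromosome 5. Members were chosen by symbol from the RefSeq gene table of GRCh38, as the PCDHA, PCDHAC, PCDHB, PCDHGA, PCDHGB and PCDHGC genes on that chromosome, out of 19974 protein-coding genes. They comprised 15 alpha, 16 beta and 22 gamma genes. The BAF45D peaks described lie in a window from 50 kb before the first gene to 50 kb after the last, chr5:140736140-141562975, which is 827 kb long. It held 4 of the 4204 peaks of the library ESC1 and 10 of the 12533 of ESC2. Of the NSC lists, it held 10 of 29783 peaks (NSC1) and 7 of 24669 (NSC2).

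All 4 libraries were made by CUT&Tag with the same rabbit antibody against BAF45D, from 100000 cells each. BAF45D is encoded by DPF2 and belongs to BAF, a complex that remodels chromatin. In CUT&Tag the antibody brings a transposase to the DNA beside its target. ESC1 and ESC2 were H9 cells, an established line of human embryonic stem cells, kept on Matrigel in mTeSR1 medium. NSC1 and NSC2 were spinal cord neural stem cells derived from H9. Per the labels' protocols, the derivation began with 10 days in N2B27 medium with LDN-193189, SB431542, CHIR-99021, FGF2, FGF8 and DAPT. A maintenance medium with SB-431542, CHIR-99021 and a hedgehog agonist, and then medium with FGF2 and EGF, followed, and Y-27632 was added at passages. The labels do not say whether the libraries of a cell type came from separate cultures, so the spread between them may be technical. A peak in such bulk samples does not tell a site occupied in few cells from weak occupancy in many.

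Clustered protocadherins are adhesion proteins of the cell surface that let neurons tell their own branches from those of others. Each alpha and gamma gene has a start and a large first exon of its own, spliced to constant exons that all genes of its cluster share, whereas a beta gene is a single large exon. Neurons switch on a small and largely random choice of these starts, through DNA loops held by CTCF and cohesin that join a start to distant enhancers. The C-type genes, PCDHAC1, PCDHAC2, PCDHGC3, PCDHGC4 and PCDHGC5, stand last in their clusters and are expressed more uniformly than the others.

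The 4 peak lists came from 5377831 to 20734829 tags, and the NSC lists were longer although their libraries had fewer tags. A place without a peak had no signal past the caller's threshold, which is not the same as no BAF45D. Strengths are the authors' −log10 q values and are compared only within a list, as the percent of the same list that is weaker. A start peak was called at SOX2 in each of the 4 libraries, and at SOX1, NES, VIM and NKX6-1 in both NSC libraries alone. Of 5 placed stem cell markers, 1, 2, 1 and 1 had a start peak in ESC1, ESC2, NSC1 and NSC2. These were SOX2 throughout and DNMT3B in ESC2, and NANOG, LIN28B and ZFP42 had none. Of 7 placed neural stem cell markers, SOX2 again among them, 1, 1, 5 and 5 had one, and PAX6 and FABP7 had none. Over all coding genes the share with a start peak was 6.77%, 23.2%, 43.9% and 39.0%, so a higher count in NSC is also seen without regard to markers. Among 4 placed neuron markers only SYT1 was called (in ESC2, NSC1 and NSC2), and 0 of 2 neural crest and 0 of 2 mesoderm and endoderm markers were. Such a peak is occupancy of a marker gene, not its expression. The members and gene lists were all taken up with earlier results of these data known.

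Across the window, the cell types differed in peak number by less than the spread between libraries. ESC had 7 ± 4.24 peaks and NSC 8.5 ± 2.12 (mean ± SD, n = 2 each, exact permutation test, two-sided p = 1). As a share of its own list, the window took 0.0951% of the ESC1 peaks (95% exact Clopper-Pearson interval 0.0259 to 0.243) and 0.0798% of those of ESC2 (0.0383 to 0.147). It took 0.0336% of the NSC1 list (0.0161 to 0.0617) and 0.0284% of the NSC2 list (0.0114 to 0.0585). Both ESC shares were above both NSC shares, with an exact permutation p of 0.333, the smallest that 2 against 2 libraries can give. Peaks per Mb in the window were 3.49 and 2.92 times the rate of the whole list in ESC1 and ESC2, and 1.23 and 1.04 times in NSC1 and NSC2. With every list cut to its 4204 strongest peaks, the window held 4 and 4 in ESC and 1 and 1 in NSC, so the direction of the peak number depended on list length. Some of these ESC peaks lay past the clusters in the gene DIAPH1, at rank 4181 in ESC1 and ranks 528 and 3419 in ESC2. The NSC peaks, at ranks 4189 and 1978, lay between alpha and beta. The ratio of NSC to ESC peaks was 1.21 with all libraries, 0.85 without ESC1, 2.125 without ESC2 and 1 without NSC1.

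The 31 peaks merged into 17 regions, placed along the locus in an uneven way. Of these regions 5 lay in the alpha cluster, 1 in the beta cluster and 3 in the gamma cluster. A further 3 lay between alpha and beta, 1 between beta and gamma and 4 after gamma. By library, 4 regions were NSC-only, with peaks in NSC1 and NSC2 and none in ESC. A single region was ESC-only by the same rule, and 2 were held by all 4 libraries. Over the whole series these classes made up 30.6%, 1.65% and 3.27% of 44534 merged regions. Another 8 regions rested on 1 library, a kind that made up 56.0% of all regions. Of the last 2, 1 was held by ESC2 and NSC1 and 1 by every library except ESC1. These last 10 regions together, outside the NSC-only, ESC-only and all-library classes, compare with 64.4% over the series. With ESC1 left out the ESC-only count was 6, with ESC2 left out it was 2, and with NSC2 left out the NSC-only count was 6. In these counts the class asked for a peak in only 1 library of that cell type, which is a looser rule.

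**Figure D1:**
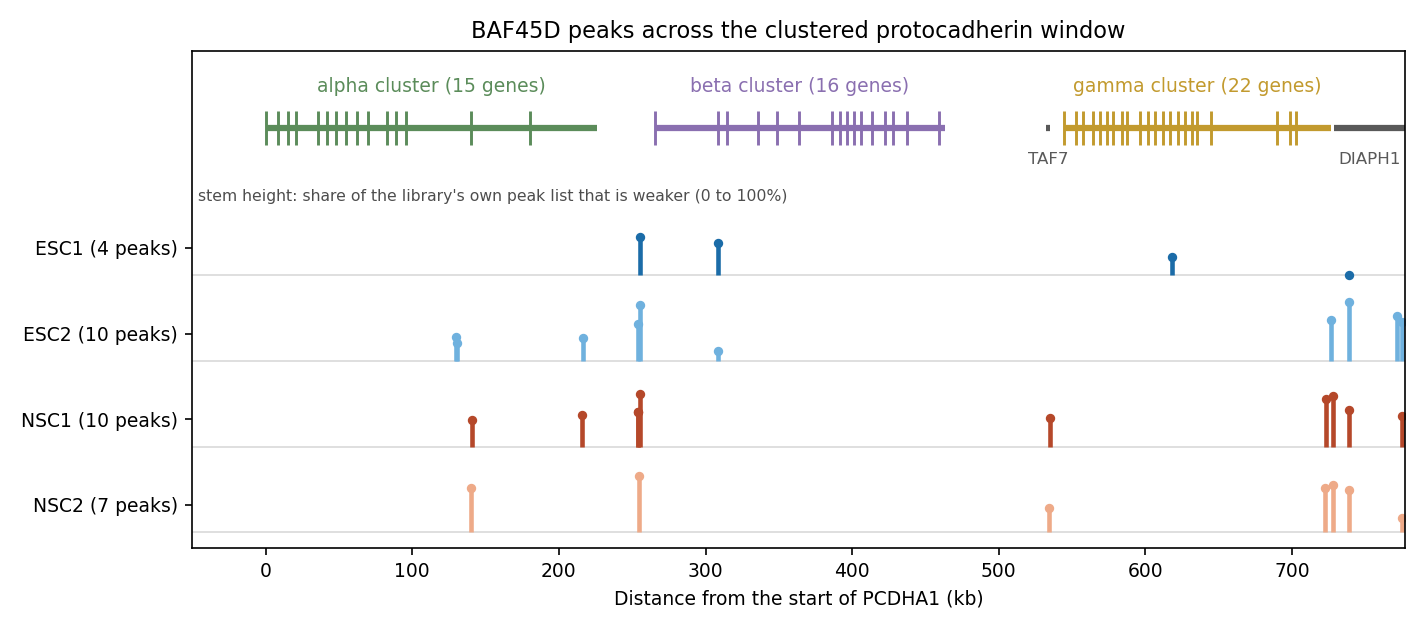
Peaks of the 4 libraries along the window, by distance from the start of PCDHA1 in kb. Ticks on the cluster bars are gene starts, and the height of each stem is the percent of the library's own list that is weaker. Stems gather between alpha and beta and after gamma, and 4 long stretches that hold 49 of the 53 starts have none.

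The starts of the variable exons, from which each gene is chosen, were almost free of peaks. In each library 1 of 53 members had a peak within 1 kb of its start, and it was PCDHB2 in ESC1 and ESC2 and PCDHAC1 in NSC1 and NSC2. Among 15818 coding genes with a known strand, 6.77% and 23.2% were called this way in ESC1 and ESC2, and 43.9% and 39.0% in NSC1 and NSC2. The other 51 members, among them all 22 gamma genes, 14 alpha genes and 15 beta genes, had no start peak in any library. The median distance from a member's start to the nearest peak was 60.6 and 88.0 kb in ESC1 and ESC2 and 74.8 kb in both NSC1 and NSC2. Over all coding genes it was 174 and 35.0 kb in ESC and 5.76 and 11.8 kb in NSC.

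Most starts lay in a few long stretches with no peak in any library. The longest, chr5:141094866-141320305, ran for 225 kb from behind the start of PCDHB2 and held 14 starts, from PCDHB3 to PCDHB15. A stretch of 180 kb at the front of the window, chr5:140736140-140915994, held the 13 starts from PCDHA1 to PCDHA13. Within gamma, a stretch of 83.5 kb held the 14 starts from PCDHGA1 to PCDHGA9 and one of 104 kb the 8 from PCDHGB6 to PCDHGC5. Together these 4 stretches made up 71.7% of the window.

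**Figure D2:**
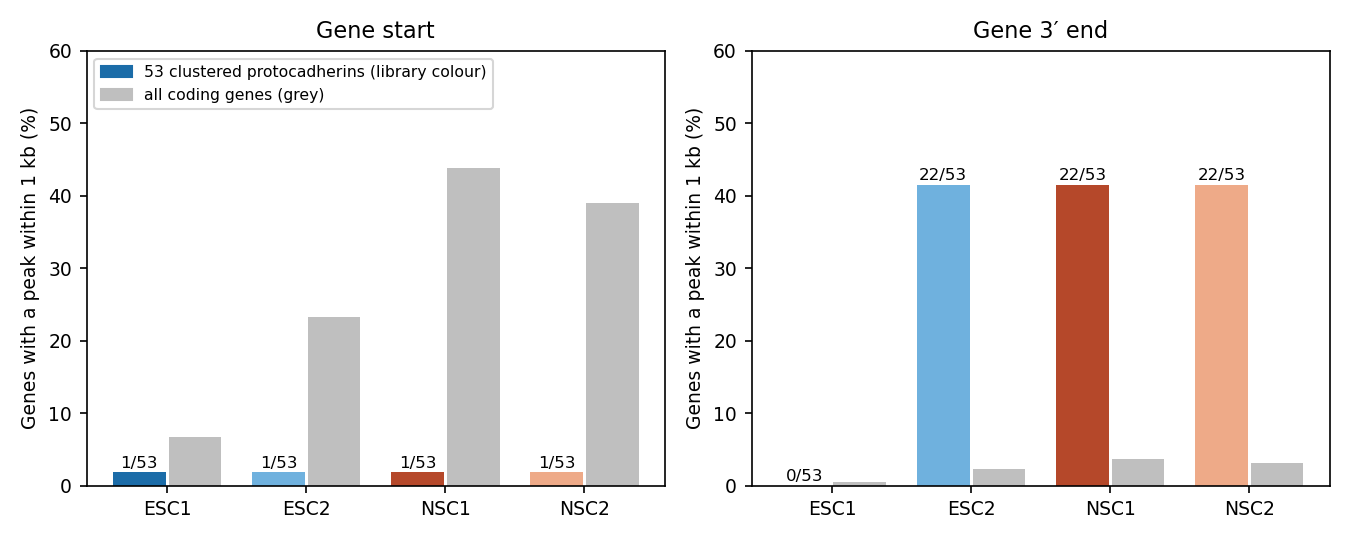
Percent of genes with a peak within 1 kb of the start (left) and of the 3′ end (right) in each library, for the 53 members (coloured bars, with counts) and for all coding genes of known strand (grey). At starts 1 of 53 members was called in each library, and at 3′ ends 22 of 53 in ESC2, NSC1 and NSC2, all through the end that the gamma genes share.

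PCDHB2, the second gene of the beta cluster, had the only ESC-only region of the window. Its peak was chr5:141094516-141094837 in ESC1 and chr5:141094522-141094865 in ESC2. The summits stood 4 and 5 bp after the annotated start, so the 2 libraries placed them 1 bp apart. The −log10 q was 3.93 in ESC1, where 52.1% of the list was weaker, and 2.26 in ESC2, where 15.9% was. Pileups were 11 and 8, and fold enrichments 5.13 and 4.05. Neither NSC library had a peak in the beta cluster. ESC-only starts were 0.190% of all coding genes. The NSC libraries had fewer tags than the ESC libraries, and the part of depth in this difference was not tested. Both ESC peaks are under a −log10 q of 5, so a list with that minimum holds neither.

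Upstream of this start lies a run of letters that the beta promoters share. The promoter table of RefSeq (GRCh38.p14), with 250 bases before and 50 after each start, matched 47 of the 53 members. PCDHA3, PCDHA13, PCDHB6, PCDHB11, PCDHGA12 and PCDHGC5 were not matched. Shown first are the 250 bases before the start of PCDHB2 (chr5:141094365-141094614, plus strand), with the shared 8 bases in capitals. Next come those of PCDHAC1 (chr5:140926049-140926298), the start with the NSC peaks, and of PCDHB1 (chr5:141051124-141051373), the beta gene nearest to the region that all libraries hold. Both of these lack the 8 bases.
PCDHB2: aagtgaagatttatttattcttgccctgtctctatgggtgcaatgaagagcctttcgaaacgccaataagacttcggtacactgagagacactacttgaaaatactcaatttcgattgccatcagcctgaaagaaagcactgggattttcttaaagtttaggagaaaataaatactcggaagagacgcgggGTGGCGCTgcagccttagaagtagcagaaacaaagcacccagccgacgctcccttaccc
PCDHAC1: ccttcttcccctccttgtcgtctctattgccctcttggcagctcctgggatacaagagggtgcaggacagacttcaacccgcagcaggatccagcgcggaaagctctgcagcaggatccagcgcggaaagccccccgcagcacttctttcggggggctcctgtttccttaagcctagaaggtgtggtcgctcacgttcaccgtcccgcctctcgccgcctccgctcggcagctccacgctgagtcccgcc
PCDHB1: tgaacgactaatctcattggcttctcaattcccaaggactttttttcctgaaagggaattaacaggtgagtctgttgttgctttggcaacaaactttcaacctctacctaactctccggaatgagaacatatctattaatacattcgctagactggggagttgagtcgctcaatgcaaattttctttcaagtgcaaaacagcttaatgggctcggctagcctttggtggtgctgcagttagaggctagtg

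The 8-mer GTGGCGCT, read on the strand of the genes, was among the 3 held by most member promoters when both strands were searched, and the rarest of them among all coding promoters. It stood in 13 of 47 member promoters and in 237 of 15812 coding promoters (1.50%). All 13 were beta promoters, out of 14 matched, and PCDHB1 was the one without it. Its first base lay between 83 and 1 bases before the start, with a median of 65, and always in the same direction. In PCDHB2 it began 59 bases before the start, inside both ESC peaks. The other beta promoters that hold it had no peak in any library. To show how far the likeness goes, 30 bases around it are given for PCDHB2 (chr5:141094545-141094574) and for 4 beta genes without a peak. These are PCDHB3 (chr5:141100394-141100423), PCDHB4 (chr5:141121724-141121753), PCDHB7 (chr5:141172567-141172596) and PCDHB15 (chr5:141245315-141245344).
PCDHB2: agagacgcgggGTGGCGCTgcagccttaga
PCDHB3: gcgaacgcatgGTGGCGCTgttgactaaga
PCDHB4: caagacgcaggGTGGCGCTgcaggctaagt
PCDHB7: caaaacgcaagGTGGCGCTgctggctaaaa
PCDHB15: gacaacgcatgGTGGCGCTgcaggctaagg

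Outside the 8 capitals, the 5 sequences differ at several places and are alike at others. Among the latter are the g on each side of the capitals and the letters acgc before them. The length of 8 was a setting of the search, so the shared run can be longer. The most shared 8-mer of the alpha promoters was ATGTCGCT, in 9 of 13, and in 0.285% of all coding promoters. In gamma it was GCCGCTGT, in 11 of 20, and in 1.88% of all coding promoters. Each 8-mer was picked because no other in its cluster was shared by more members (with ties in alpha and beta), so the member counts are a description. All 3 contain CGCT, the core letters of the conserved element known from these promoters. CGCT on either strand stood in 46 of 47 member promoters and in 81.0% of coding promoters, so that its presence alone says little. AGGNGGC, core letters of the CTCF motif, had matches in 4 of 47 member promoters, against 42.1% of coding promoters. These were PCDHAC1, PCDHB2, PCDHB7 and PCDHB9. In PCDHB7 and PCDHB9 the match runs into the shared beta 8-mer, as AGGTGGCGCT. The other beta promoters with this 8-mer differ there from AGGNGGC in its first letter alone. TATAAA matched 6 of 47, against 9.75%, and both strands were searched for each. The median GC content was 39.7% in member promoters and 62.7% in coding promoters, and its part in these counts was not tested. Such matches are letters in a window of 300 bases, not measured sites.

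PCDHAC1, the first of the C-type alpha genes, had the only start peak of the alpha cluster, and it was NSC-only. The peak was chr5:140926459-140926867 in NSC1 and chr5:140926213-140926710 in NSC2, with summits 383 and 277 bp after the start. The −log10 q was 4.79 in NSC1, where 44.0% of the list was weaker, and 8.06 in NSC2, where 71.5% was. Fold enrichments were 5.56 and 7.22. The NSC1 peak is under a −log10 q of 5, so a stricter list keeps the NSC2 peak alone. NSC-only starts were 16.3% of all coding genes, so a single member in this class is not set apart from that background. The nearest ESC peaks were 2 in ESC2, chr5:140915995-140916274 and chr5:140916754-140916953, which ended 10025 and 9346 bp before the start of PCDHAC1. They were weak in their list (38.7% and 29.6% weaker), and ESC1 had none there.

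**Figure D3:**
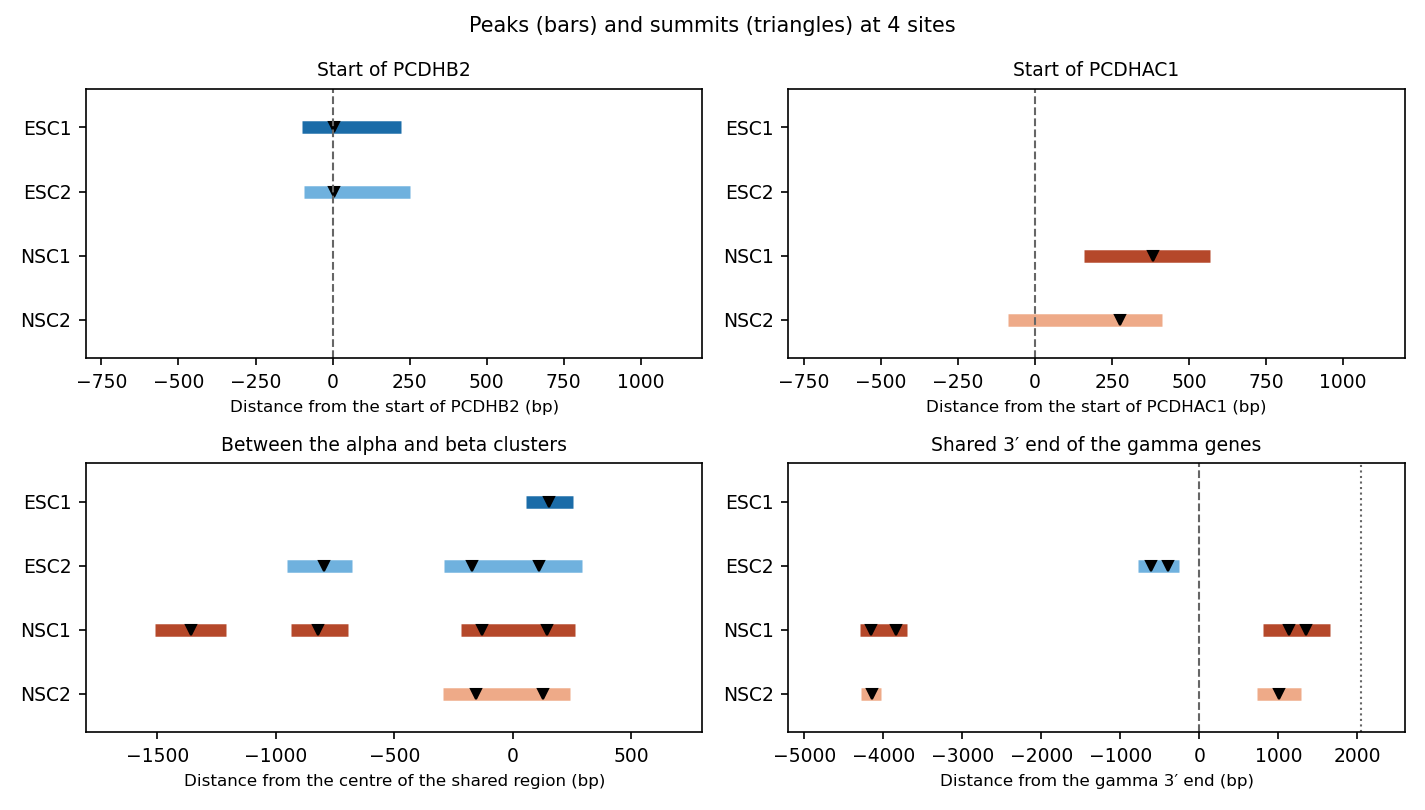
Peaks (bars) and summits (triangles) of each library, in bp from the start of PCDHB2, the start of PCDHAC1, the centre of the region shared between alpha and beta, and the 3′ end shared by the gamma genes. The dashed line is the start or 3′ end and the dotted line the 3′ end of DIAPH1. The summits at PCDHB2 sit 4 and 5 bp after the start in the ESC libraries only, those at PCDHAC1 383 and 277 bp after it in the NSC libraries only.

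PCDHAC1 had the highest CpG content of the matched members. Its promoter held 27 CpG, or 9 per 100 bases, above the median of 7.33 for coding promoters. The median was 2.33 in alpha, 2.5 in beta and 2.33 in gamma promoters. Only 5 matched members reached 5 per 100 bases, and 4 of these were C-type genes, namely PCDHAC1, PCDHGC4 (7.67), PCDHGC3 (6) and PCDHAC2 (5). The fifth was PCDHGB6 (5.33). Among all coding promoters under 5 CpG per 100 bases, a start peak was called at 2.77% and 10.2% in ESC1 and ESC2 and at 15.6% and 13.3% in NSC1 and NSC2. At or over it the shares were 8.90%, 30.1%, 58.9% and 52.6%. The split was chosen after these values had been seen, and the part of CpG content in the low count of member starts was not tested. Of the 42 members under the split, 1 was called in each ESC library and 0 in each NSC library.

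**Figure D4:**
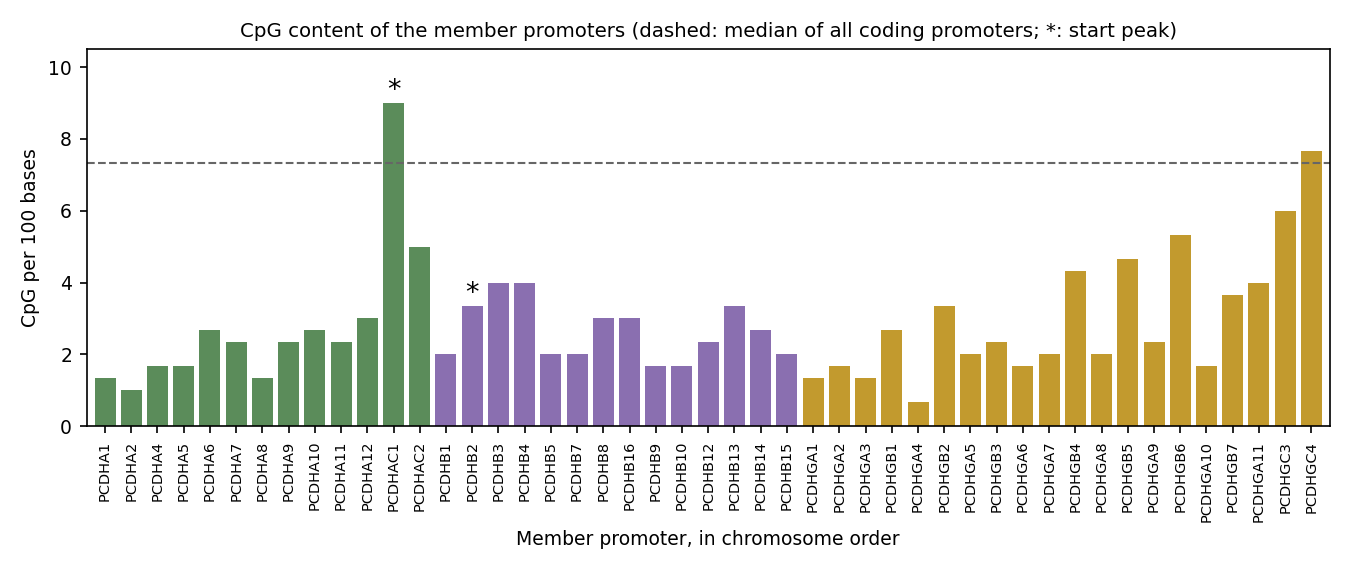
CpG per 100 bases in the 300-base promoters of the 47 matched members in chromosome order, coloured by cluster (alpha green, beta violet, gamma ochre). The dashed line is the median of all coding promoters (7.33), and stars mark the 2 members with a start peak. PCDHAC1 and PCDHGC4 are the members above the line, and PCDHB2, the other starred gene, has 3.33.

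The region most firmly held by the libraries lay between the alpha and beta clusters and overlapped no gene. It was chr5:141040816-141041402 and had a peak in all 4 libraries. It began 28.5 kb behind the 3′ end that the alpha genes share and ended 9972 bp before the start of PCDHB1. The lncRNA gene PCDHB1-AS1 (chr5:141046205-141078031) lay nearer, with no peak within 1 kb in any library. The −log10 q was 4.81 and 15.2 in ESC1 and ESC2, and 13.4 and 16.9 in NSC1 and NSC2. Within the lists, 62.3%, 90.4%, 85.9% and 92.0% of the peaks were weaker. It was the strongest window peak in ESC1, NSC1 and NSC2, and the second in ESC2. In ESC2, NSC1 and NSC2 the peak had 2 summits, 284, 275 and 282 bp apart. The ESC1 peak, chr5:141041163-141041362, covered only the one nearer to PCDHB1, and over the 4 libraries that summit lay within 42 bp.

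Beside it stood 2 weaker regions of the same gap. ESC2 and NSC1 shared chr5:141040158-141040429, with −log10 q of 5.10 and 6.01 and summits 24 bp apart. NSC1 alone had chr5:141039602-141039899, with −log10 q of 5.96. So NSC1 had 3 peaks in the gap, ESC2 had 2, and ESC1 and NSC2 had 1 each. An enhancer of the alpha genes, called HS5-1, is known from the stretch between alpha and beta. Enhancers are not part of the gene table used here, and whether these regions hold it was not tested.

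In the constant part of the alpha cluster, ESC2 and NSC1 had 1 peak each, 62 bp apart without touching. These were chr5:141001983-141002184 in NSC1 (−log10 q 5.54, 52.1% of the list weaker) and chr5:141002247-141002488 in ESC2 (3.31, 36.8% weaker). They overlap the constant region that all 15 alpha genes share, about 10 kb before its end. ESC1 and NSC2 had none here. The shared 3′ end of the alpha genes had no peak within 1 kb in any library.

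**Figure D5:**
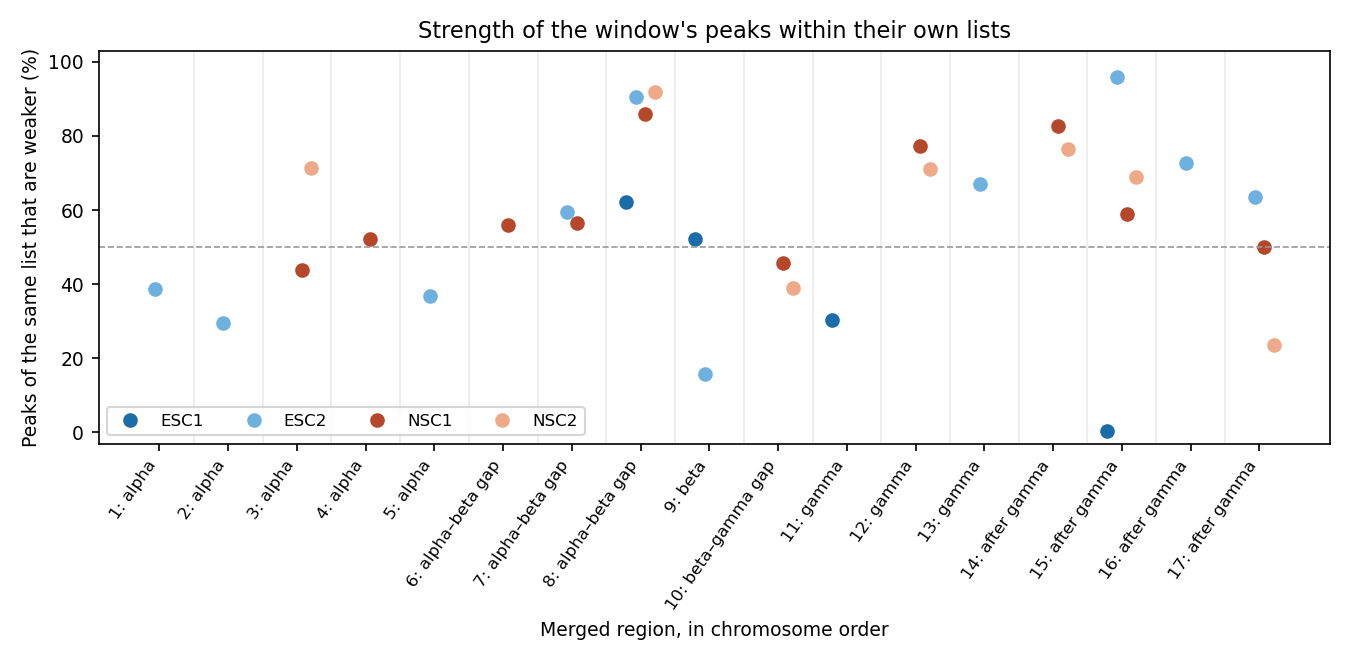
For each of the 17 merged regions in chromosome order, the percent of the library's own list that is weaker than its peak there, with 1 point per library that holds a peak. The dashed line is the middle of a list. Region 8, between alpha and beta, has points at 62.3% or higher in all 4 libraries, while region 15, after gamma, runs from 0.523% in ESC1 to 95.8% in ESC2.

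Among the gamma genes, 2 of the 3 regions lay behind the start of PCDHGC5, the last gene, where all 22 genes overlap. Exon positions were not used here. Within 1 kb of that 3′ end, ESC2, NSC1 and NSC2 each had 1 peak, which calls 22 of 53 members at once, and ESC1 had none. Such a call was made at 2.35%, 3.73% and 3.12% of coding genes in ESC2, NSC1 and NSC2 and at 0.525% in ESC1. No member was NSC-only, ESC-only or called in all 4 libraries at its 3′ end, classes that held 1.39%, 0.101% and 0.278% of coding genes. Because 1 peak gives all 22 calls, this count stands for 1 site in each library. Counted at either end, 23 members were called in each of ESC2, NSC1 and NSC2 and 1 in ESC1, and 2, 2, 2 and 1 distinct peaks lay behind them.

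The called peak of ESC2 and those of the NSC libraries at this end did not overlap. In ESC2 the peak was chr5:141512196-141512721, which ends 254 bp before the shared end and so lies inside the gamma genes (−log10 q 6.14, 67.1% of the list weaker). In NSC1 it was chr5:141513777-141514623 (11.9, 82.8% weaker) and in NSC2 chr5:141513708-141514261 (9.15, 76.4% weaker). These begin 802 and 733 bp past the shared end, in the short gap before the 3′ end of DIAPH1, a formin gene that is read in the opposite direction. The gap from the ESC2 peak to the NSC peaks was 1056 and 987 bp. The same 22 genes were thus called in ESC2 and in the NSC libraries through peaks that did not overlap. ESC1 had no peak there, so the ESC side is 1 library.

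A second NSC-only region lay inside the gamma cluster, 3696 bp before the shared end at its nearest. The peak was chr5:141508683-141509279 in NSC1 and chr5:141508689-141508941 in NSC2, with −log10 q of 9.84 and 8.03 (77.2% and 71.2% of the lists weaker). The NSC2 summit and the first of the 2 NSC1 summits were 1 bp apart. It overlaps all 22 gamma genes, since it lies behind the start of PCDHGC5, the last of them. The third gamma region was an ESC1 peak, chr5:141404434-141404666 (−log10 q 2.74, 30.3% weaker), whose near edge was 1656 bp behind the start of PCDHGA9. It lies in the 14 genes from PCDHGA1 to PCDHGA9, and no other library had a peak there.

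Counted by gene body, members overlap so much that few peaks call many of them. A peak lay inside 15, 38, 37 and 36 of 53 members in ESC1, ESC2, NSC1 and NSC2, against 9.16%, 29.6%, 54.1% and 48.5% of coding genes. In ESC2, NSC1 and NSC2 all 22 gamma genes were called this way, and in ESC1 14 of them. Of the alpha genes, 15, 15 and 14 were called in ESC2, NSC1 and NSC2, and 0 in ESC1. The beta genes, which do not overlap, showed 1 of 16 in each ESC library (PCDHB2) and 0 in each NSC library. By gene body 14 members, all gamma, were called in all 4 libraries (6.63% of coding genes), and PCDHB2 was ESC-only (0.443%). No member was NSC-only by gene body (20.6%), although NSC-only regions lie in both the alpha and gamma clusters, because ESC2 peaks at other sites overlap the same genes.

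After the gamma cluster, the other region held by all 4 libraries lay in DIAPH1. It was chr5:141524711-141525151, 11.7 kb past the gamma end, and its strength differed widely within the lists. The −log10 q was 1.34 and 24.7 in ESC1 and ESC2, and 6.34 and 7.60 in NSC1 and NSC2, with 0.523%, 95.8%, 59.0% and 68.9% of the lists weaker. It was the strongest window peak in ESC2 and the weakest in ESC1, while the summits of the 4 libraries lay within 101 bp. Near the end of the window, ESC2, NSC1 and NSC2 shared chr5:141560743-141561125 (5.63, 5.35 and 3.30), in DIAPH1 and its antisense gene DIAPH1-AS1. ESC2 alone had chr5:141557706-141558098 (7.13) in DIAPH1. In the mouse, elements behind the gamma cluster are known to control the beta genes, and no such role was tested here.

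Between beta and gamma, the 1 region was at the start of TAF7, which encodes a subunit of the general transcription factor TFIID and is no protocadherin. The peak was chr5:141320580-141320968 in NSC1 and chr5:141320306-141320915 in NSC2, with −log10 q of 4.95 and 4.29 and summits 77 and 14 bp before the start. Neither ESC library had a peak there. The neighbouring gene SLC25A2 and the pseudogenes PCDHB17P, PCDHB18P, PCDHB19P, PCDHGB8P and PCDHGB9P had none within 1 kb in any library. Over the whole window, all 7 peaks of NSC2 overlapped one of NSC1, and 7 of the 10 of NSC1 one of NSC2, where 74.5% and 60.8% did over the whole lists. Of the 4 ESC1 peaks, 3 overlapped one of ESC2, and 3 of the 10 of ESC2 one of ESC1, where 59.2% and 19.7% did over the whole lists. Across cell types, 4 of the 10 ESC2 peaks overlapped one of NSC1 and 3 one of NSC2, against 38.6% and 36.4% of the ESC2 list. NSC1 and NSC2 each overlapped 2 of the 4 ESC1 peaks, against 38.8% and 39.2% of the ESC1 list. In the other direction the window shares were above those of the lists. An ESC2 peak was overlapped by 4 of the 10 NSC1 peaks (16.1% of the list) and 3 of the 7 of NSC2 (18.5%). For ESC1 it was 2 of NSC1 (5.41%) and 2 of NSC2 (6.66%). These counts are small and were not tested.

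The unclustered protocadherins, single genes scattered over the genome, belong to the same family without the shared exons. Of 12 on the list, 10 were placed by strand (PCDH10 and PCDH20 were not analysed here), and 5 of these were NSC-only, where 16.3% of coding genes were. They were PCDH9 (−log10 q 18.9 and 17.0 in NSC1 and NSC2), PCDH17 (17.9 and 7.15), PCDH1 (10.1 and 7.06), PCDH8 (3.49 and 7.28) and PCDH18 (2.56 and 5.77). None of the 10 had a start peak in ESC. PCDH7, PCDH11X, PCDH12, PCDH15 and PCDH19 had none in any library.

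CTCF and cohesin hold the loops of the clusters. Of 12 placed genes for CTCF, cohesin and its loaders and releasers, 11 and 10 had a start peak in NSC1 and NSC2, 5 in ESC2 and 0 in ESC1, beside the shares of coding starts given above. CTCF, which binds the protocadherin starts and enhancers, had one in ESC2, NSC1 and NSC2 (8.42, 29.8 and 21.1). NSC-only were 4, namely the cohesin subunits STAG1 (12.6 and 22.5) and STAG2, the release factor WAPL (7.53 and 3.71) and PDS5A. Among 15 placed genes of silencing and DNA methylation, 4 were NSC-only (RCOR1, DNMT1, DNMT3A and SMCHD1) and 2 were called in all 4 libraries. Those 2 were SETDB1, a histone methyltransferase (8.40, 10.3, 10.7 and 8.71 in ESC1, ESC2, NSC1 and NSC2), and the repressor REST (11.5, 10.2, 15.6 and 4.07). SMCHD1, which is known to repress protocadherin genes, had −log10 q of 2.38 and 2.87.

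Of 14 placed genes for intracellular partners of the clustered protocadherins, 3 were NSC-only and 2 were called in all 4 libraries. AXIN1 (17.8 and 7.74), BRK1 and NCKAP1, the latter 2 of the WAVE complex that builds actin networks, made up the first group. PDCD10 and ABI1, another WAVE subunit (10.3, 35.3, 29.8 and 40.5 in ESC1, ESC2, NSC1 and NSC2), made up the second. Of 8 placed classical cadherins and catenins, CTNNB1, the gene of beta-catenin, was NSC-only (6.46 and 6.90), and JUP was called in all 4 libraries. These counts are read beside 16.3% of coding genes that were NSC-only at their start and 6.13% that were called in all 4 libraries, and no test was made of a list.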

How the data were processed

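BAF45D CUT&Tag was analysed in 2 ESC and 2 NSC libraries. The submitters' processing notes name hg38, BWA 0.7.12, Trimmomatic and FastQC. Peaks were called in each library alone with MACS2 2.1.0.20150420, without a control, at a q of 0.05. Reads were shifted by -100 bp and extended to 200 bp, and the background was taken over 10000 bp, per the file headers. The authors deposited for every peak its pileup (the signal at the summit), a fold enrichment over the background of the same library, and −log10 p and −log10 q values.

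Entries with the same interval were joined, the strongest −log10 q was kept, and chromosomes 1 to 22 and X were used. Peaks overlapping by 1 bp were merged into regions. The lists hold no read counts outside peaks, so libraries were compared by presence. The members and lists were chosen with earlier results of these data known. A gene's start and 3′ end followed from its RefSeq position and the strand in the RefSeq promoter table, which gave a strand for 15812 of 19974 coding genes. The 6 members without an entry were given the plus strand, which the other members share. Promoters were counted once per gene, at the entry farthest upstream. Members with their own start called were named, as was every region, and from other lists up to 4 genes per class by mean rank (PCDH18 was added after its values were seen). The overlap code was tested on simulated data. Python 3.11.15, pandas 2.3.3 and scipy 1.17.1 were used. Intervals cover counting error only.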

Additional observations from a re-analysis of the deposited data

How the results depend on the processing

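The ratio of the mean window peak number in NSC to that in ESC was 1.21. It turned to 0.25 at equal list length, ranged from 0.85 (without ESC1) to 2.125 (without ESC2) with 1 library left out, and was 2.17 at −log10 q of at least 5. No permutation test of it could pass 0.05 with these numbers. At −log10 q of at least 5, there were 2 NSC-only, 0 ESC-only and 0 shared regions, 1 member with a start peak (PCDHAC1), and 4 peaks behind the calls at gene ends. The same values were 4, 1, 2, 2 and 7 in the report. With lists of equal length, no region (0) was NSC-only and 1 was shared by all 4 libraries (between alpha and beta), with 1 member called at its start (PCDHB2, by ESC1 alone) and 2 peaks behind the calls. The region at PCDHB2 was then no longer ESC-only, and the 1 ESC-only region was the one in DIAPH1 that all 4 full lists hold. With a flank of 10 kb, 1 region was shared by all 4. Leaving out 1 library gave 1 to 6 ESC-only regions (6 without ESC1, 2 without ESC2) and 4 to 6 NSC-only regions. The number of members called at a 3′ end in at least 1 library was 22 under every alternative run. All 22 share that end. At equal list length (4204 peaks) these calls rested on ESC2 alone, whose peak ranked 4126. The NSC1 and NSC2 peaks there ranked 5124 and 5820 and were cut. Some of these shifts follow from the rules. A class is judged on the libraries still in use, so leaving out 1 library loosens it. ESC1 had 0 window peaks at −log10 q of at least 5, so no region could then be ESC-only or shared by all 4. A stricter threshold and equal length also give shorter lists by construction. Beyond this, the cause of the shifts was not tested.

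No paired analysis was possible because the labels do not tie a replicate number to a shared culture or day, and no model was fitted. Libraries of the same number went opposite ways, with 4 window peaks in ESC1 against 10 in NSC1, and 10 in ESC2 against 7 in NSC2. The lowest depth was 5377831 tags, and a site without a peak is not shown to be free of BAF45D.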
